A study of Rattus norvegicus with 2 samples.

Results

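The genes described are 50 rat genes of the unfolded protein response, of the integrated stress response that runs through the transcription factor ATF4, and of serine synthesis. They were taken from a fixed list of symbols and found on the arrays through the RefSeq accession of each probe. Of the 50 genes, 44 had a matching probe. Shmt1, Pycr1, Slc7a1, Manf, Edem1 and Derl2 had none matched here. Ern1, which encodes the stress sensor IRE1, was too dim to measure, in red and in green, on both arrays. That left 43 measured members on each array, among 10847 genes measured on the withdrawal array and 10236 on the Bcl-2-labelled array. All 43 were well above background in both channels of both arrays.

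When unfolded proteins build up in the endoplasmic reticulum (ER), the sensors PERK, IRE1 and ATF6 start the unfolded protein response. ATF6 and the spliced form of XBP1 switch on ER chaperones, disulphide isomerases and the machinery of ER-associated degradation (ERAD), which returns misfolded proteins to the cytosol for destruction. PERK phosphorylates the translation factor eIF2α, as the amino-acid sensor kinase GCN2 also does. That lowers protein synthesis in general but favours translation of ATF4, so ATF4 activity can change without a change in its mRNA. ATF4 in turn switches on amino-acid transporters, asparagine synthetase and the enzymes that make serine and feed the folate cycle. In the brain, serine synthesis is known mainly from radial glia and astrocytes.

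Cortical neural precursor cells were prepared from SD rat embryos at day 14 and grown in N2 medium supplemented by bFGF at 10 ng/mL, which maintains their proliferation. All groups were transiently transfected by nucleofection with 4 µg of plasmid, so the cells of a dish need not all carry it. The withdrawal array set cells with the empty vector MSCV-IRES-EGFP, moved to NB medium and kept without bFGF for 2 days (red, Cy5), against cells with that vector kept in N2 with bFGF (green, Cy3). Medium and growth factor therefore changed together. The array labelled Bcl-2 set cells with rBcl-2-MSCV-IRES-EGFP with bFGF (red), meant to overexpress the rat form of this blocker of apoptosis at mitochondria, against the vector cells with bFGF (green). The withdrawal array asks what differentiation changes, while the other asks for effects of Bcl-2 on cells that go on dividing. Each comparison had 1 array, both on 1 slide, with no dye swap and no replicate. No difference below therefore has a replicate check, and no test was possible.

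Values are log2 ratios of red over green after loess normalization, so a value above 0 means higher in the channel labelled as treated. Which way the ratios run remains unsettled, because both arrays have the same dye orientation against a control with the same label, yet their log2 ratios correlated at r = -0.68 over 42011 gene spots. The Feature Extraction ratio, which the scanner software computed, gave r = -0.14. Values follow the labels. Below, "without bFGF" and "vector cells with bFGF" name the label of a channel, just as "labelled Bcl-2" does. Which array has labels that hold is not known. Turning the sign of an array changes the sign of each of its ratios and medians and swaps higher for lower in each of its counts, and the turned values are printed beside the main results. The Bcl2 probe had a ratio of -0.02 on the Bcl-2-labelled array and of 0.39 on the withdrawal array. Whether that probe lies within the sequence carried by the plasmid is not given in the sources used here. Of the spots, 72.0% in red and 66.3% in green were well above background on the withdrawal array, and 66.1% and 66.6% on the Bcl-2-labelled array. The deposited error of a member's log2 ratio is given by the scanner software for each spot and covers no difference between cultures. It lay between 0.20 and 0.24 on the withdrawal array and between 0.20 and 0.29 on the Bcl-2-labelled array. That error belongs to the Feature Extraction ratio. After a ± sign it is printed here beside the loess ratio, which has no error of its own. Over the 5 member probes printed 10 times, the SD between spots was 0.021 to 0.052 and 0.018 to 0.045.

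Some of the ER genes on the list hold a common promoter element. The list was made of known genes of this response, so the shares below are not independent of the choice of genes. The RefSeq windows (assembly GRCr8) run from 250 bases before to 50 bases after the annotated start of a gene, and 41 of the 50 members have one. The ER stress element, to which ATF6 and the factor NF-Y bind, was searched on both strands as CCAAT, any 9 bases, CCACG. It was found in 6 of the 16 ER chaperone and ERAD members with a window (37.5%), in Xbp1, and in 0 of the 12 amino-acid and serine members. Among all 27457 genes with a window, 21 (0.0765%) held it. Sites of 6 of these genes are shown with 6 bases on either side, read on the strand that carries the motif, with the fixed bases of the element in capitals. Coordinates cover the element without its flanks.
Hspa5 (chr3:38452973-38452991, gene on the + strand): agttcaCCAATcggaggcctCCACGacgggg
Hsp90b1, site nearer to the start (chr7:23012347-23012365, gene on the - strand): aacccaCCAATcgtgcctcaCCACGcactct
Hsp90b1, site farther from the start (chr7:23012451-23012469, gene on the - strand): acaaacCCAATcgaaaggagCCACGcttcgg
Calr (chr19:40213135-40213153, gene on the + strand): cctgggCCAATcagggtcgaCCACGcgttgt
Dnajc3 (chr15:102432534-102432552, gene on the + strand): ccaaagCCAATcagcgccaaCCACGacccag
Creld2 (chr7:121789239-121789257, gene on the + strand): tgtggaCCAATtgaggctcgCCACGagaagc
Xbp1 (chr14:84604558-84604576, gene on the + strand): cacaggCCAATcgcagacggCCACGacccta

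The site of Hspa5 spans positions -43 to -25 and that of Calr -232 to -214, with the annotated start as 0. Hspa5 encodes BiP, the main ER chaperone and the usual readout of this pathway. The 250 bases before its start (chr3:38452766-38453015, + strand) are printed with the element in capitals to show how close to the start it lies.
Hspa5: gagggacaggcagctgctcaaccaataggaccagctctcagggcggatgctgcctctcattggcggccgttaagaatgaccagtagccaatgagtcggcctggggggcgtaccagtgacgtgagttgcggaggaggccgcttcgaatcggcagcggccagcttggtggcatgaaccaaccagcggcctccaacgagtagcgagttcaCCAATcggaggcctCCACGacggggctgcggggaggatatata

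The second ER stress element was searched as ATTGG, any 1 base, CCACG, and was found in Herpud1, Dnajb11 and Hyou1, against 17 of all genes (0.0619%). The XBP1 and ATF6 element TGACGTGG was found among members in Hyou1 alone, where it overlaps a second ER stress element, against 187 of all genes (0.681%). In both sites shown the fixed bases of the second element are in capitals.
Herpud1 (chr19:10614821-10614831, gene on the - strand): gcgctgATTGGgCCACGttgggc
Dnajb11 (chr11:91672800-91672810, gene on the - strand): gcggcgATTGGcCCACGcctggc

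The C/EBP-ATF response element, to which ATF4 binds with a C/EBP partner, was searched by its core TGATG, any 1 base, AA. It was found in 6 members (14.6% of 41), namely Trib3, Chac1, Ppp1r15b, Herpud1, Pycr1 and Slc7a1, against 1141 of all genes (4.16%). The sites of the members that were measured have the fixed bases of the core in capitals. A match is a run of letters and not a measured binding site, and these windows miss elements that lie farther away or within the gene.
Trib3 (chr3:161275547-161275554, gene on the - strand): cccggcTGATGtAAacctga
Chac1 (chr3:126795964-126795971, gene on the + strand): caggagTGATGcAAcggcgg
Ppp1r15b (chr13:47129822-47129829, gene on the + strand): tccggcTGATGcAActtgcc
Herpud1 (chr19:10614884-10614891, gene on the - strand): gcgggcTGATGcAAcccgcc

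**Figure D1:**
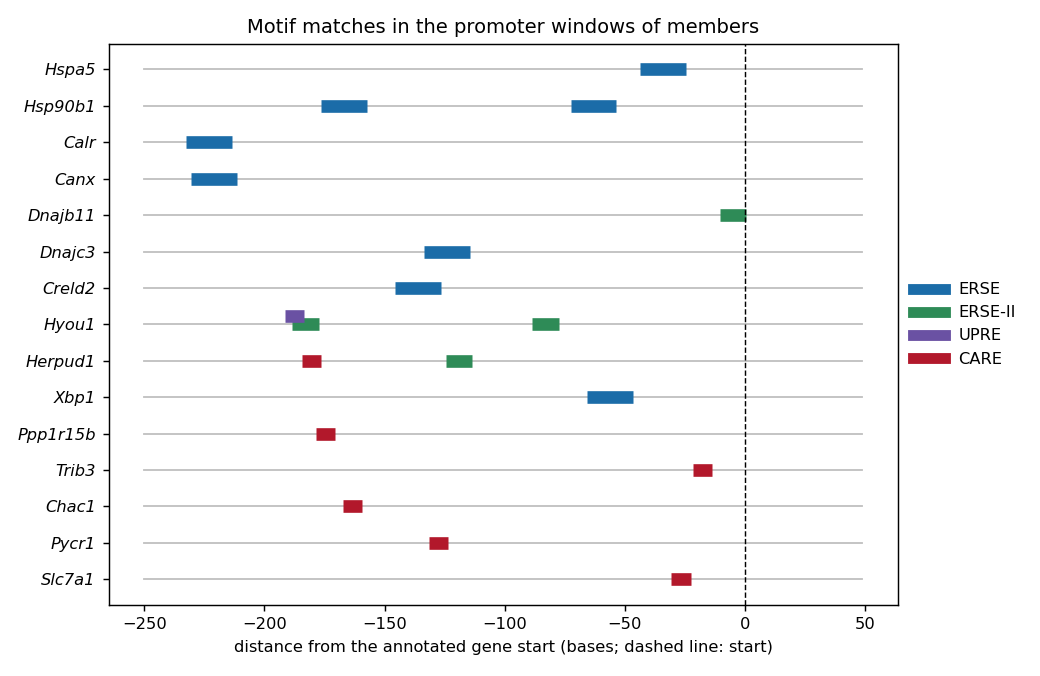
Motif matches in the promoter windows of the 15 members that hold at least 1 match. The horizontal axis is the distance from the annotated gene start in bases, grey lines are the windows searched, and coloured bars are the matches. ER stress elements stand in Hspa5, Hsp90b1, Calr, Canx, Dnajc3, Creld2 and Xbp1, and none stands in an amino-acid or serine member.

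On the withdrawal array the members moved little as a set, and the genes that stood out belonged mostly to amino-acid and serine supply. Of the 43 measured members, 0 were at least 2-fold higher without bFGF, where 2.42% of all measured genes were, and 1 (2.33%) was at least 2-fold lower, where 0.47% were. At a limit of 1.5-fold, 4 members (9.30%) were higher, beside 7.99% of all genes, and 1 (2.33%) was lower, beside 2.79%. The shares at 1.5-fold were close to those of all genes. The members higher at 1.5-fold were Psat1, Phgdh, Slc3a2 and Sdf2l1, and the lower one was Slc38a2. Phgdh stood at that limit (0.59), and its call ended with the Feature Extraction ratio (0.46) and, just short of the limit at 0.58, with a background offset of 10 and with no background subtraction. Atf3 was past the limit with the Feature Extraction ratio (0.78) and with an offset of 10 (0.66). The median of the 43 members was 0.07, with 24 above 0 and 19 below, beside a median of 0.03 over all measured genes. With the sign turned the median is -0.07, the calls at 1.5-fold are 1 higher and 4 lower, and those at 2-fold 1 higher and 0 lower. With median centring in place of loess, 10 members were past 1.5-fold above and 1 below, so that 90.9% of the calls were higher in place of 80.0% (9.09% in place of 20.0% with the sign turned). Of all measured genes, 15.8% were higher and 1.83% lower with that centring. That setting moved the median of all genes to 0.17.

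Members leaned below 0 on the Bcl-2-labelled array, again with amino-acid genes at both ends. Slc38a2 was at least 2-fold higher in the channel labelled Bcl-2 (2.33% of members), beside 0.557% of all genes, and Psat1 was at least 2-fold lower (2.33%), beside 2.00%. At 1.5-fold, Slc38a2 was the 1 member higher (2.33%), beside 2.30% of all genes. At that limit Psat1, Sdf2l1, Slc3a2, Slc7a5 and Calr were lower (11.6%), beside 6.64%. The median of the 43 members was -0.11, with 13 above 0 and 30 below, beside -0.01 over all measured genes. With the sign turned the median is 0.11 and the calls at 1.5-fold are 5 higher and 1 lower. The Feature Extraction ratio gave 2 members above and 5 below at 1.5-fold, so that 28.6% of the calls were higher in place of 16.7% (71.4% in place of 83.3% with the sign turned). Of all measured genes, 9.96% were higher and 12.8% lower with that ratio, so the members lower were not in excess of that share. With it 19 members lay above 0 and 24 below.

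**Figure D2:**
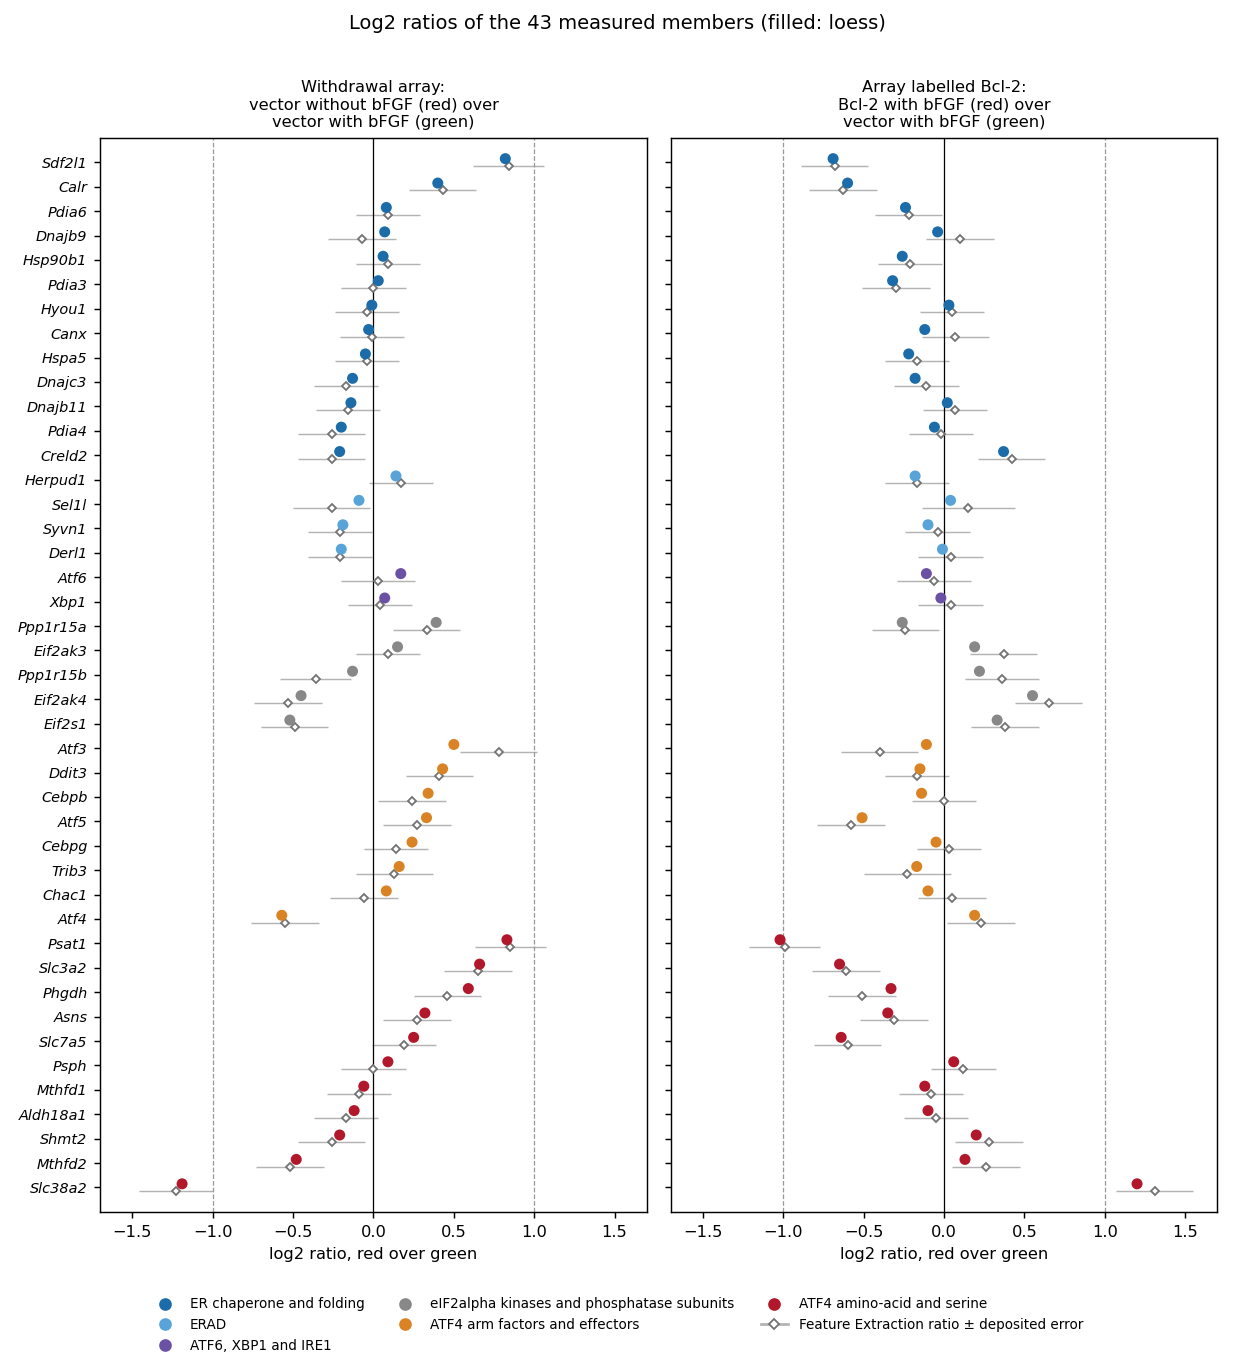
Log2 ratios, red over green, of the 43 measured members on the withdrawal array (left) and the Bcl-2-labelled array (right), grouped by role. Filled points are loess ratios, open diamonds are Feature Extraction ratios with the deposited spot error as bars, and dashed lines mark 2-fold. Slc38a2 lies at -1.19 on the withdrawal array and at 1.20 on the Bcl-2-labelled array, and the ER chaperone and ERAD members other than Sdf2l1, Calr and Creld2 lie between -0.32 and 0.14 on both.

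Serine is made from a glycolytic intermediate by Phgdh, Psat1 and Psph in turn. Psat1, the aminotransferase of the second step, had log2 signals of 15.11 in cells without bFGF and 14.28 in vector cells with bFGF on the withdrawal array. Its log2 ratio was 0.83 ± 0.22 (deposited error, 1 array), or 1.78-fold. In the channel labelled Bcl-2 its log2 signal was 14.16, against 15.19 in vector cells with bFGF, a log2 ratio of -1.02 ± 0.22. The channels with the high signal were thus the red one of the withdrawal array and the green one of the Bcl-2-labelled array.

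Phgdh, the first enzyme of the path, had log2 signals of 17.09 without bFGF and 16.50 with bFGF, a log2 ratio of 0.59 ± 0.21. In the channel labelled Bcl-2 it had 16.66 and in vector cells with bFGF 17.00, a log2 ratio of -0.33 ± 0.21. On that array its ratio lay between -0.65 and 0.12 over the settings tried. Psph, the phosphatase of the last step, was at 0.09 on the withdrawal array and 0.06 on the Bcl-2-labelled array, within its deposited error of 0.20. The steps of the path therefore had unlike ratios on each array.

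Slc38a2, a sodium-coupled transporter of small neutral amino acids, had the most extreme ratio of the members on both arrays. Its log2 signals were 11.41 without bFGF and 12.60 with bFGF, a log2 ratio of -1.19 ± 0.23, or 0.44 times the level with bFGF. In the channel labelled Bcl-2 it had 12.54 and in vector cells with bFGF 11.34, a log2 ratio of 1.20 ± 0.24, or 2.29-fold. Over all settings tried it lay between -1.23 and -0.92 on the withdrawal array and between 1.17 and 1.31 on the Bcl-2-labelled array.

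Slc3a2 encodes the heavy chain that carries large neutral amino-acid exchangers to the membrane, and Slc7a5 encodes one of its light chains, LAT1. Slc3a2 had log2 signals of 13.15 without bFGF and 12.50 with bFGF, a log2 ratio of 0.66 ± 0.21. In the channel labelled Bcl-2 it had 12.40 and in vector cells with bFGF 13.04, a log2 ratio of -0.65 ± 0.21. Slc7a5 was at 0.25 ± 0.20 on the withdrawal array, short of 1.5-fold, and at -0.64 ± 0.21 on the Bcl-2-labelled array. Both chains thus lay above 0 on the first array and below 0 on the second.

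The other amino-acid and one-carbon members stayed short of 1.5-fold on both arrays. Asns, asparagine synthetase and a standard ATF4 target, was at 0.32 on the withdrawal array and -0.35 on the Bcl-2-labelled array. Mthfd2, the mitochondrial folate dehydrogenase, was at -0.48 and 0.13, and its 3 probes lay between -0.49 and -0.36 on the withdrawal array. Shmt2, which moves a carbon unit from serine to folate in mitochondria, was at -0.21 and 0.20. Mthfd1, the cytosolic folate enzyme, was at -0.06 and -0.12, and Aldh18a1, the first enzyme of proline synthesis, at -0.12 and -0.10.

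Atf4 itself and the factors around it differed from each other on the withdrawal array. The Atf4 probe had log2 signals of 13.82 without bFGF and 14.39 with bFGF, a log2 ratio of -0.57 ± 0.21, and its 10 spots lay between -0.62 and -0.53. The channel labelled Bcl-2 had 14.16 and vector cells with bFGF had 13.98, a log2 ratio of 0.19 ± 0.21. Neither ratio reached 1.5-fold. The other 7 members of the ATF4 arm all lay above 0 on the withdrawal array and below 0 on the Bcl-2-labelled array, none past 1.5-fold. With the Feature Extraction ratio 6 of the 8 lay above 0 on the withdrawal array and 5 of the 8 below 0 on the Bcl-2-labelled array. By the loess ratio, Trib3 and Chac1 were within their deposited error on the withdrawal array. On the Bcl-2-labelled array all of the 7 but Atf5 (-0.51) were within it. With the Feature Extraction ratio Atf3 (-0.40) was outside it there too. Of all measured genes, 5900 of 10847 lay above 0 on the withdrawal array and 5301 of 10236 below 0 on the Bcl-2-labelled array. Opposite signs are not particular to this arm, since the ratios of both arrays correlated at r = -0.68 over gene spots.

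Among members of the ATF4 arm, Atf3, a stress-induced repressor and activator, was at 0.50 on the withdrawal array and -0.11 on the Bcl-2-labelled array. It was at 0.78 and -0.40 with the Feature Extraction ratio. Ddit3, the death-promoting factor CHOP, was at 0.43 and -0.15. Atf5, a relative of ATF4, was at 0.33 and -0.51. The C/EBP partners Cebpb and Cebpg were at 0.34 and 0.24 on the withdrawal array and at -0.14 and -0.05 on the Bcl-2-labelled array. Trib3, a pseudokinase that holds ATF4 back, was at 0.16 and -0.17, and Chac1, which degrades glutathione, at 0.08 and -0.10. The median of the 8 members was 0.29 on the withdrawal array and -0.13 on the Bcl-2-labelled array, and -0.29 and 0.13 with the sign turned.

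The members upstream of ATF4 translation gave a median of -0.13 on the withdrawal array and 0.22 on the Bcl-2-labelled array, or 0.13 and -0.22 with the sign turned. With the Feature Extraction ratio these medians were -0.36 and 0.37. Eif2s1, which encodes eIF2α, was at -0.52 and 0.33. Eif2ak4, which encodes GCN2, was at -0.45 and 0.55. Eif2ak3, which encodes PERK, was at 0.15 and 0.19, with 10 spots between 0.05 and 0.22 on the withdrawal array and between 0.13 and 0.24 on the Bcl-2-labelled array. Of the subunits that lead the phosphatase to eIF2α, the stress-induced Ppp1r15a was at 0.39 and -0.26 and the constitutive Ppp1r15b at -0.13 and 0.22. None of the 5 reached 1.5-fold on either array as reported, while Eif2ak4 did with the Feature Extraction ratio on the Bcl-2-labelled array. Arrays of mRNA do not measure phosphorylation, protein or the splicing of Xbp1.

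**Figure D3:**
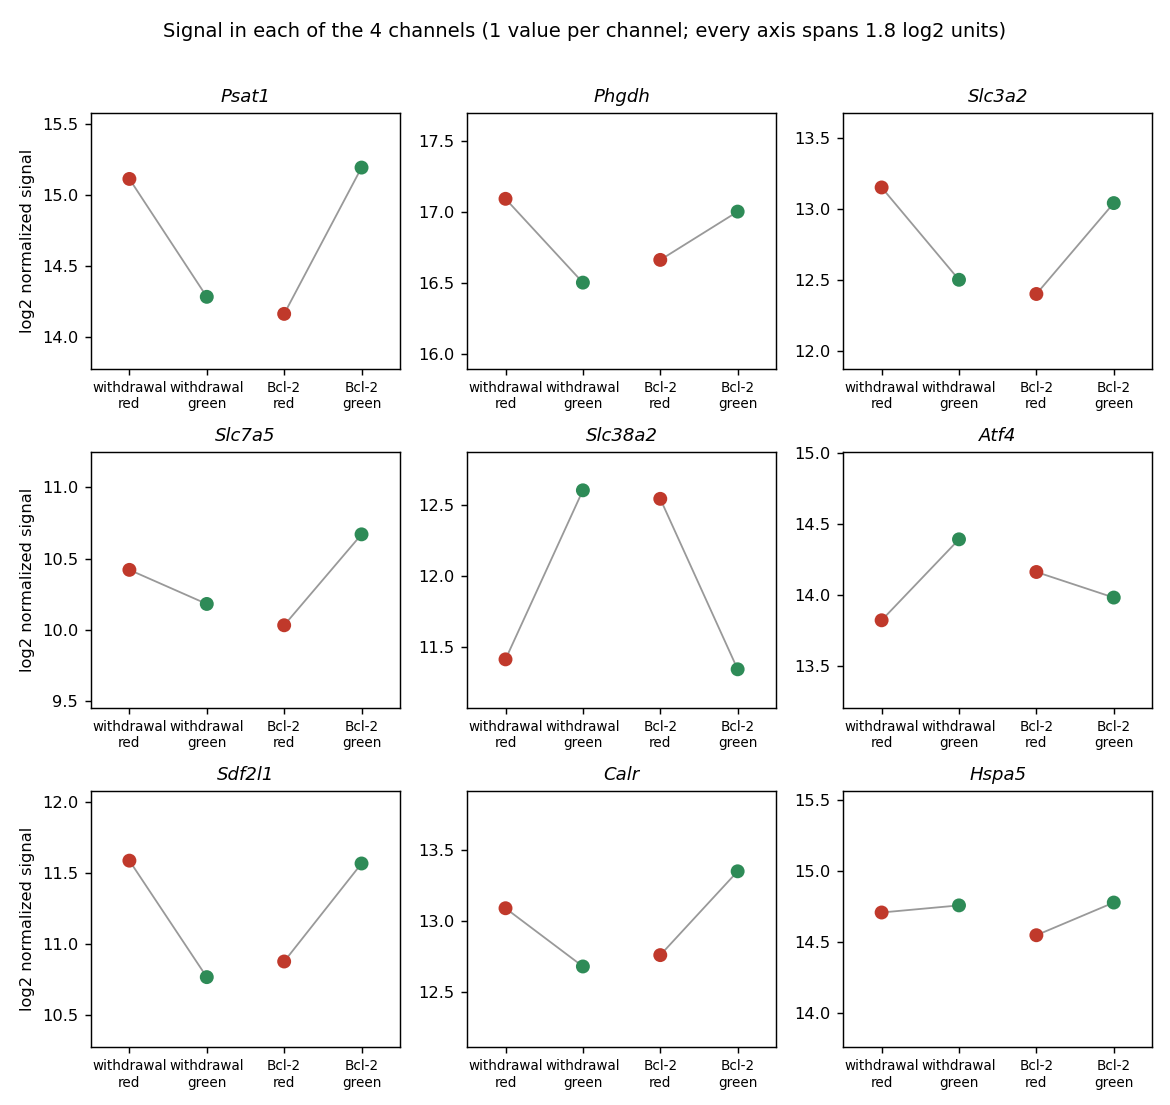
Log2 normalized signal of 9 members in each of the 4 channels, with red points for Cy5 and green points for Cy3, and lines joining the channels of 1 array. Psat1 stands at 15.11 and 15.19 in the red channel of the withdrawal array and the green channel of the Bcl-2-labelled array, and at 14.28 and 14.16 in the other two channels, while Slc38a2 shows the reverse order and Hspa5 stays between 14.55 and 14.78.

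Most of the genes that report on the ATF6 and XBP1 branches were nearly flat, while Sdf2l1, Calr and Creld2, given below, were not. Hspa5 had log2 signals of 14.71 without bFGF and 14.76 with bFGF, a log2 ratio of -0.05 ± 0.20. In the channel labelled Bcl-2 it had 14.55 and in vector cells with bFGF 14.78, a log2 ratio of -0.22 ± 0.20. Atf6 was at 0.17 and -0.11, but its 2 probes differed in sign on the Bcl-2-labelled array, at -0.37 and 0.15. Xbp1 was at 0.07 and -0.02. The ER-resident chaperones Hsp90b1, Canx and Hyou1 lay between -0.03 and 0.06 on the withdrawal array. Their ratios on the Bcl-2-labelled array were -0.26, -0.12 and 0.03.

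The disulphide isomerases Pdia3, Pdia4 and Pdia6 were at 0.03, -0.20 and 0.08 on the withdrawal array and at -0.32, -0.06 and -0.24 on the Bcl-2-labelled array. The co-chaperones of BiP, Dnajb9, Dnajb11 and Dnajc3, were at 0.07, -0.14 and -0.13 on the withdrawal array and at -0.04, 0.02 and -0.18 on the Bcl-2-labelled array. Creld2, a secreted ER stress protein, was at -0.21 and 0.37. Of the ERAD members, Herpud1, which organises the degradation complex, was at 0.14 and -0.18. The ligase Syvn1, its partner Sel1l and the channel protein Derl1 lay between -0.20 and -0.09 on the withdrawal array and between -0.10 and 0.04 on the Bcl-2-labelled array. No ERAD member reached 1.5-fold on either array.

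Sdf2l1 and Calr were the only ER members past 1.5-fold on either array. Sdf2l1, a partner of the BiP co-chaperone complex, had log2 signals of 11.59 without bFGF and 10.77 with bFGF. Its log2 ratio was 0.82 ± 0.22, with its 2 probes at 0.87 and 0.76. In the channel labelled Bcl-2 it had 10.88 and in vector cells with bFGF 11.57, a log2 ratio of -0.69 ± 0.21, with its probes at -0.60 and -0.78. Calr, the calcium-binding chaperone calreticulin, was at 0.40 ± 0.21 on the withdrawal array and at -0.60 ± 0.21 on the Bcl-2-labelled array. The Calr log2 signals were 13.09 without bFGF and 12.68 with bFGF, and 12.76 in the channel labelled Bcl-2 and 13.35 in vector cells with bFGF. Of the 6 ER members with an ER stress element in their window, Calr was past 1.5-fold on the Bcl-2-labelled array, and the other 5 lay between -0.21 and 0.06 on the withdrawal array and between -0.26 and 0.37 on the Bcl-2-labelled array. With median centring Calr was past 1.5-fold on the withdrawal array (0.69) and short of it on the Bcl-2-labelled array (-0.56), and in the authors' deposited value table it was past it on both (0.61 and -0.78).

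The ER list and the amino-acid list were then set against each other. The 17 measured ER chaperone and ERAD members had a median of -0.03 on the withdrawal array (7 above 0, 10 below), and the 11 measured amino-acid and serine members 0.09 (6 above, 5 below). The ER median minus the amino-acid median was -0.12, or 0.12 with the sign turned. Both medians were -0.12 on the Bcl-2-labelled array (4 of 17 ER and 4 of 11 amino-acid members above 0) and their difference was 0.00. With the sign turned the ER medians are 0.03 and 0.12 and the amino-acid medians -0.09 and 0.12. The SD between genes was 0.26 for ER members and 0.57 for amino-acid members on the withdrawal array, and 0.24 and 0.58 on the Bcl-2-labelled array, beside 0.40 and 0.37 over all measured genes.

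The sign of the ER median on the withdrawal array turned with the scaling, to 0.26 with median centring and 0.14 in the authors' deposited value table. Relative to the median of all genes it was -0.06 as reported, 0.09 with median centring and -0.02 in that table. Over the same settings the ER median minus the amino-acid median kept its sign on the withdrawal array.

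**Figure D4:**
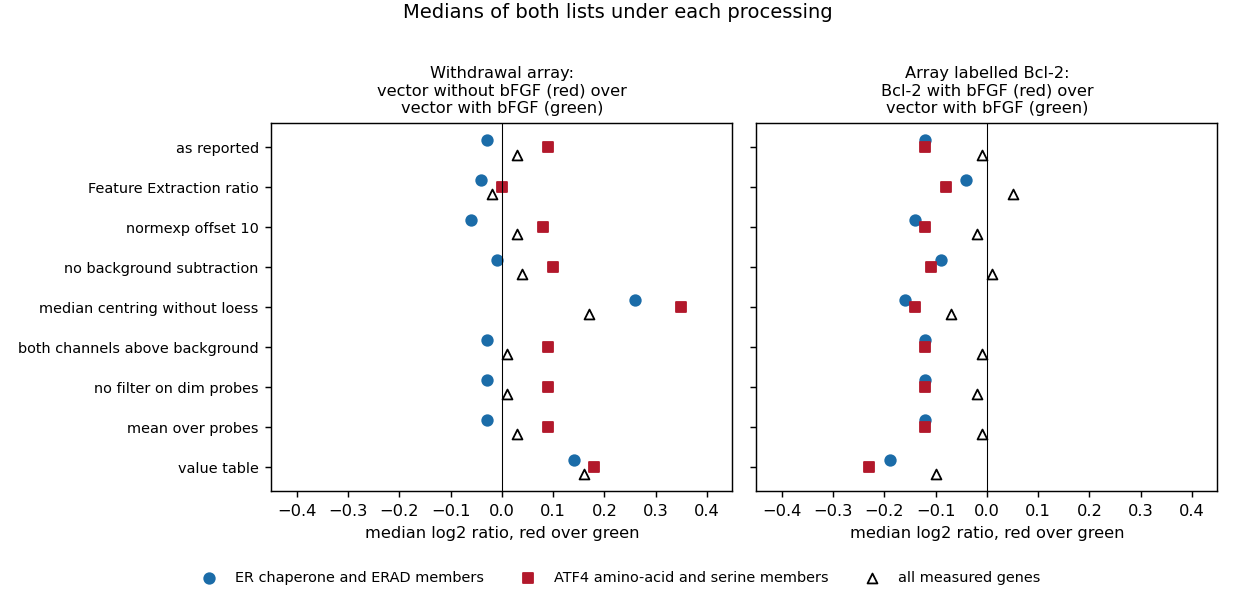
Median log2 ratio of the ER chaperone and ERAD members (circles), the amino-acid and serine members (squares) and all measured genes (triangles) under each processing, for the withdrawal array (left) and the Bcl-2-labelled array (right). On the withdrawal array the ER median runs between -0.06 and 0.26 and lies to the left of the amino-acid median under every processing shown.

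Of the other genes of these pathways, the ATF4 targets had the medians farthest from 0. They were 91 genes in 6 lists, also chosen with earlier results known. The 20 measured genes of ER folding and translocation had a median of -0.04 on the withdrawal array and -0.05 on the Bcl-2-labelled array, with 0 past 1.5-fold on either. Other ERAD genes had medians of 0.03 and -0.17 (12 measured), and other ER stress transducers 0.06 and -0.19 (11 measured). With the sign turned these medians are 0.04 and 0.05, -0.03 and 0.17, and -0.06 and 0.19. With median centring the medians of these lists on the withdrawal array were 0.24, 0.35 and 0.37.

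Other ATF4 targets had a median of 0.39 over 17 measured genes on the withdrawal array and -0.27 over 15 on the Bcl-2-labelled array, or -0.39 and 0.27 with the sign turned. These medians were 0.44 and -0.67 with the Feature Extraction ratio, and 0.62 and -0.81 in the authors' deposited value table. Relative to the median of all genes both gave 0.46 and -0.71, since that table holds the same ratio but for a constant. On the withdrawal array 2 of the 17 were at least 2-fold higher, 6 at least 1.5-fold higher and 0 lower. Of the 15 measured on the Bcl-2-labelled array, 2 were at least 2-fold and 5 at least 1.5-fold below vector cells, and 0 were above them past 1.5-fold. Of all measured genes, 2.42% were at least 2-fold and 7.99% at least 1.5-fold higher on the withdrawal array. On the Bcl-2-labelled array, 2.00% were at least 2-fold and 6.64% at least 1.5-fold lower. In the other direction the shares at 1.5-fold were 2.79% and 2.30%. The filter also kept targets bright in 1 channel only. With both channels required above background, 14 targets were left on each array, with medians of 0.39 and -0.32.

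Ddit4, an inhibitor of the growth kinase mTORC1, was at 1.45 on the withdrawal array and -1.21 on the Bcl-2-labelled array. Its brighter probe had log2 signals of 11.95 without bFGF and 10.23 with bFGF, and of 10.59 in the channel labelled Bcl-2 and 12.21 in vector cells with bFGF. Slc7a11, the cystine and glutamate exchanger that uses Slc3a2 as its heavy chain, was at 1.04 and -1.14. Its probes differed in size, at 1.68 and 0.40 on the withdrawal array and at -1.67 and -0.61 on the Bcl-2-labelled array. Derl3, an ERAD channel protein, was at -1.11 on the Bcl-2-labelled array and at 0.75 on the withdrawal array, where 1 of its 2 probes was not well above background in green. That dim probe was at 0.25 there. The other, the only probe kept on the Bcl-2-labelled array, was at 1.25.

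**Figure D5:**
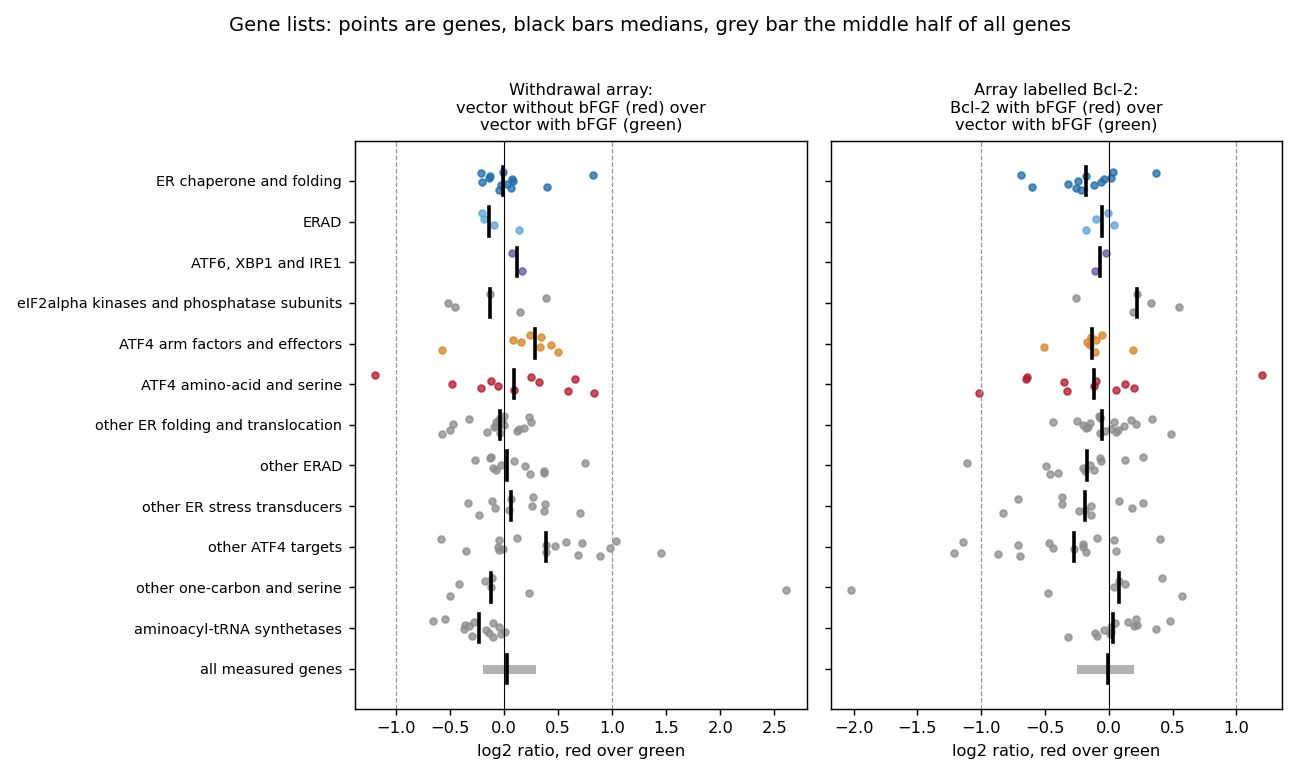
Log2 ratios, red over green, by gene list on the withdrawal array (left) and the Bcl-2-labelled array (right). Points are genes, black bars are list medians, the grey bar spans the middle 50% of all measured genes, and dashed lines mark 2-fold. Other ATF4 targets lie farthest to the right by median on the withdrawal array (0.39) and farthest to the left on the Bcl-2-labelled array (-0.27).

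Every cell type marker list but microglia and blood had a median above 0 on the withdrawal array and below 0 on the Bcl-2-labelled array. With the Feature Extraction ratio the endothelium median on the Bcl-2-labelled array was 0.03. Of the 9 astrocyte markers, 8 were measured, and all 8 lay above 0 on the withdrawal array (0.12 to 3.54, median 0.83) and below 0 on the Bcl-2-labelled array (-3.20 to -0.38, median -0.86). Gfap, the defining astrocyte filament, was not well above background in any channel. Neuron markers had medians of 0.50 (5 of 5 measured above 0) and -0.34 (4 of 5 below 0), which were 1.25 and -0.68 with the Feature Extraction ratio and 1.42 and -0.83 in the authors' deposited value table. The astrocyte medians were 1.22 and -1.30 with that ratio and 1.39 and -1.45 in that table, which holds the same ratio but for a constant. Neural precursor markers had medians of 0.21 and -0.25, fibroblast and smooth muscle markers 0.55 and -1.41, and oligodendrocyte markers 0.12 and -0.10. Microglia and blood markers, 3 of 6 measured, had medians of -0.17 and 0.17, and endothelium markers, 2 of 5 measured, 0.20 and -0.07. With the sign turned each of these medians changes sign. In RNA of a whole culture, more cells of a type and more RNA per cell cannot be told apart, and the part of these cell types in the ratios of the members was not tested.

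The channels of the members did not pair by label. Over the 43 members, the log2 signals of the green channels, both labelled vector with bFGF, differed with an SD of 0.382 and a range of -1.26 to 0.91 (array labelled Bcl-2 minus withdrawal array). The green channel of the Bcl-2-labelled array minus the red channel of the withdrawal array had an SD of 0.131 and a range of -0.30 to 0.27. The red channel of the Bcl-2-labelled array minus the green channel of the withdrawal array had an SD of 0.125 and a range of -0.27 to 0.18. The red channels differed with an SD of 0.351. The same SDs over the 26861 spots that were bright enough in every channel were, in that order, 0.402, 0.136, 0.145 and 0.376. Channels with unlike labels were therefore closer than channels with the same label.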

How the data were processed

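Total RNA was measured on 2 two-colour Agilent rat arrays, and samples were grouped by their labels. The deposited scanner files hold, per the file headers, median spot and background intensity for each channel, not normalized, and 0 or 1 flags for outlier, saturated and well above background. A further deposited column is the log10 ratio that Feature Extraction computed, with an error of its own, and both were converted here to log2. They name Feature Extraction 11.5.1.1, protocol GE2_1105_Oct12, array design 028282, build rn4 and scanner G2505C, while version 8.5.1.1 stands in the submitters' processing notes. The value table that the authors deposited has 2 columns of a linear ratio with medians 0.932 and 0.944, whose scale, centring and direction are not stated. Single-spot probes (28395) were compared with a tolerance of 0.05 (log2) after a constant. The first column matched red over green of the Feature Extraction signals of the withdrawal array in 100% of them. For the second, 7.06% matched its own array and 100% the product of both ratios, so the quotient of the columns was used for that array.

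Median signals were corrected by normexp (offset 50) and normalized within arrays by loess with control and outlier spots weighted 0 (limma 3.58.1, R 4.3.3). Channel signals were then scaled between arrays by Aquantile. Of 42877 gene spots, 534 and 576 outliers were left out with 0 spots saturated. Repeated spots were averaged. A probe was kept if at least 0.5 of its spots were well above background in at least 1 channel, leaving 20328 and 19026 of 30367 probes. Names came from RefSeq accessions (assembly GRCr8), which named 60.4% of probes. A gene is the median over kept probes, called at 2-fold (log2 of 1) or 1.5-fold (0.58) if all had the same sign. These steps were tested on simulated arrays. The offset pulls the ratios of dim probes toward 0. Lists were summarised with pandas 2.3.3, numpy 2.4.6 and matplotlib 3.10.9 (Python 3.11.15).

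No test was run, for want of replicate arrays. The members and all lists were chosen with earlier results of these data known. Named genes are the members, Bcl2 as the check of the label, and those other pathway genes whose loess and Feature Extraction ratios both reach 2-fold. Tyms and the marker Gfap are named outside that rule. The 8 alternatives were the Feature Extraction ratio, a normexp offset of 10, no background subtraction, median centring without loess, a filter on both channels, no filter, the mean over probes, and the value table. The value table and the Feature Extraction ratio differ by a constant and are not independent.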

Additional observations from a re-analysis of the deposited data

Results flagged for a closer look

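4 members were at least 1.5-fold on both arrays and in opposite directions. The share of all measured genes that did so was not computed. Log2 ratios of both arrays correlated at r = -0.68 over 42011 gene spots, so opposite directions are not particular to these genes. Slc38a2 was at 1.20 on the Bcl-2-labelled array and -1.19 on the withdrawal array, a difference of 2.38 on the log2 scale. Psat1 was at -1.02 on the Bcl-2-labelled array and 0.83 on the withdrawal array, a difference of -1.85. Sdf2l1 was at -0.69 and 0.82, a difference of -1.51, and Slc3a2 at -0.65 and 0.66, a difference of -1.30. None of these differences was tested, since each rests on 1 array per comparison, and the comparisons share a control by label. With the sign of 1 array turned, the ratios of each of these genes would point the same way on both arrays.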

How the results depend on the processing

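No paired analysis was possible because each comparison has 1 array and no replicate. On the withdrawal array, 3 members were at least 2-fold higher with median centring (Psat1, Phgdh and Sdf2l1) and 2 in the value table (Psat1 and Sdf2l1), against 0 as reported. Median centring gave 0 at least 2-fold lower, against 1. The ER median there changed sign, to 0.26 with median centring and 0.14 in the value table. The amino-acid median was 0.00 with the Feature Extraction ratio, 0.35 with median centring and 0.18 in the value table, and the ER minus amino-acid difference was -0.04 with the Feature Extraction ratio. On the Bcl-2-labelled array, 0 members were at least 2-fold lower with the Feature Extraction ratio and with median centring, against 1. The ER median was -0.04 with the Feature Extraction ratio and -0.19 in the value table, and the amino-acid median -0.23 in the value table. The causes were not tested. Median centring and the value table moved the median of all genes on the withdrawal array to 0.17 and 0.16, against 0.03. Under the other alternatives the 2-fold counts stayed the same, and the ER and amino-acid medians moved by less than the deposited error averaged over the list. At 1.5-fold on the withdrawal array, 3 members were higher with no background subtraction and 6 in the value table, against 4, and on the Bcl-2-labelled array 7 were lower in the value table, against 5. The shares of all measured genes under these settings were 7.58%, 20.5% and 16.8%, in that order. Among the marker lists, the median of microglia and blood markers was -0.49 and 0.44 with the Feature Extraction ratio, that of neural precursor markers on the withdrawal array 0.48 with median centring, and that of fibroblast and smooth muscle markers on the Bcl-2-labelled array -2.19 in the value table. For single members, 302 of 344 values on the withdrawal array and 339 of 344 on the Bcl-2-labelled array moved by less than the deposited error. These shares overstate stability. The filter settings could not change a measured member, since all were well above background in both channels. The mean over probes could not change a member with 1 probe. Many values that moved on the withdrawal array did so with median centring, for example Psat1 (1.22) and Phgdh (1.13). As for sign, 0 members past 1.5-fold changed it. Signal over background limits Ern1, for which no ratio is given. The 1 probe behind most members gives no check of the probe itself.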

Other observations

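Genes that charge tRNAs with amino acids, which ATF4 is also known to switch on, lay apart from the ATF4 targets above. Of the 14 aminoacyl-tRNA synthetases, all measured, 13 lay below 0 on the withdrawal array, with a median of -0.23, and 1 was at least 1.5-fold lower. Of all measured genes, 4947 of 10847 lay below 0 there and 2.79% were at least 1.5-fold lower. On the Bcl-2-labelled array, 10 of the 14 synthetases lay above 0, beside 4935 of 10236 measured genes, with a median of 0.03 and 0 past 1.5-fold. With the sign turned the medians are 0.23 and -0.03. With median centring the median on the withdrawal array was 0.09, with 8 above 0. Relative to the median of all genes it was -0.26 as reported and -0.08 with median centring.

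Other one-carbon and serine genes had medians of -0.12 on the withdrawal array and 0.08 on the Bcl-2-labelled array over 7 measured genes, or 0.12 and -0.08 with the sign turned. They were -0.34 and 0.30 with the Feature Extraction ratio. Aldh1l1, a cytosolic folate dehydrogenase that is also on the astrocyte list, stood far from the rest. It had log2 signals of 10.22 without bFGF and 7.61 with bFGF, a log2 ratio of 2.61 ± 0.35. In the channel labelled Bcl-2 it had 7.93 and in vector cells with bFGF 9.94, a log2 ratio of -2.02 ± 0.33. The Feature Extraction ratios of Aldh1l1 were 3.05 and -2.81, farther from the loess ratios than these errors. Tyms, thymidylate synthase, was at -0.12 on the withdrawal array and at 0.04 on the Bcl-2-labelled array.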
